A study of Mus musculus with 5 samples.

Results

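The genes described here are the main α- and β-tubulin isotypes of the mouse neuroblastoma line Neuro-2A (N2A), together with Ttc5, which encodes the factor that starts the decay of tubulin mRNAs. They were picked by name: 3 α-tubulin genes (Tuba1a, Tuba1b and Tuba1c), 6 β-tubulin genes (Tubb2a, Tubb2b, Tubb3, Tubb4b, Tubb5 and Tubb6) and Ttc5, which makes 10 of the 55573 genes in the count table. Polyadenylated RNA was sequenced from N2A cells transfected with 60 pmol of siRNA, either a commercial negative control (siCtl, 2 libraries, replicates 1 and 3) or an siRNA against Upf1 (siUpf1, 3 libraries, replicates 1, 2 and 3). Upf1 encodes the RNA helicase on which nonsense-mediated mRNA decay (NMD) depends, and the knockdown asked which transcripts depend on it. All libraries came from the same purchased line (ATCC CCL-131) in DMEM/F-12 medium with fetal bovine serum, and the siRNA, delivered with the transfection reagent TransIT-X2, was the only labelled difference. The labels do not say whether the libraries came from separate cultures, and the study describes independent experiments for its immunoblots of such cells. The p-values measure the spread between these libraries, which may be technical.

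Microtubules are polymers of α/β-tubulin dimers, and vertebrates make each subunit from several genes whose products, the isotypes, differ mainly in their acidic tails. Cells also adjust tubulin mRNA to the pool of free dimers, a process called tubulin autoregulation. When dimers are in excess, TTC5 binds the N-terminus of a tubulin chain as it leaves the ribosome and, through the adaptor SCAPER, brings the CCR4-NOT deadenylase to the mRNA being translated. The element that is recognised is encoded by the first 4 codons, which spell methionine, arginine, glutamate and then isoleucine in β-tubulins or cysteine in α-tubulins.

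The opening of each coding sequence except that of Tubb6 is shown, because in tubulin genes it encodes the element recognised in autoregulation. The first 24 bases from the start codon are given 5′ to 3′ as in the GENCODE M21 transcripts (GRCm38), with the first 4 codons in capitals.
Tuba1a: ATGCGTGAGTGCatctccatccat
Tuba1b: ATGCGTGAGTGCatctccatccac
Tuba1c: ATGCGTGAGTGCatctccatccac
Tubb2a: ATGCGCGAGATCgtgcacatccag
Tubb2b: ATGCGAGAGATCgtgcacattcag
Tubb3: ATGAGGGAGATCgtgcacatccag
Tubb4b: ATGAGGGAGATCgtgcacctgcag
Tubb5: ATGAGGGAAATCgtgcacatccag
Ttc5: ATGATGGCTGATgaagaggaagaa
The 3 α-tubulin genes used the same codons, while the β-tubulin genes shown used 3 different codons for arginine. Ttc5 did not carry the element. Across 21569 coding genes with a complete start, the 4 residues were found in 17 genes (0.0788%), of which 16 were tubulins, all 9 tubulins described here among them. The other gene, Gm49450, is annotated as a readthrough of Tuba1a into Tuba1b. Its 899 exonic bases all lie in those genes on the same strand (473 in Tuba1a and 426 in Tuba1b), where a read cannot be given to one gene. Its count of 0 in all libraries together follows from the counting and does not measure its level.

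All 9 tubulin genes had 4 exons in their representative transcript. In the α-tubulin genes exon 1 held only the 3 bases of the start codon, and in the β-tubulin genes it held the first 57 coding bases. The 3 α genes lie together on chromosome 15 of GRCm38 (Tuba1b at 98931425 to 98934565 and Tuba1a at 98949837 to 98953703 on the minus strand, Tuba1c at 99029891 to 99038110 on the plus strand), and Tubb2a and Tubb2b are neighbours on chromosome 13 (34074274 to 34078007 and 34126748 to 34130466, minus strand). The remaining β genes are dispersed, Tubb3 on chromosome 8, Tubb4b on chromosome 2, Tubb5 on chromosome 17 and Tubb6 on chromosome 18. Ttc5 has 10 exons on chromosome 14 (50765415 to 50785519, minus strand). Representative 3′ untranslated regions (3′ UTRs) ran from 101 nt in Tuba1c to 1061 nt in Tubb5, against a median of 849 nt over 20705 genes. Only Ttc5 had transcripts annotated as NMD targets (2 of its 6), a class that 20.5% of coding genes have. The 7-base matches to the seeds of the Upf1 siRNA, GATAATT for its antisense strand and AACCTTG for its sense strand, searched on the mRNA strand, were in none of the 10 3′ UTRs. They were in 7.81% and 9.21% of all 3′ UTRs.

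The near-identity of some isotypes limits what gene-level counts can say. The coding sequences of Tuba1a, Tuba1b and Tuba1c were 97.1% to 98.3% identical and those of Tubb2a and Tubb2b 96.5%, whereas the other pairs of β-tubulins were 80.2% to 86.0% identical. Of all windows of 100 bases, the read length, 65.1% in Tuba1a, 69.5% in Tuba1b and 53.4% in Tuba1c also occurred in a transcript of another gene. The shares were 36.9% in Tubb2a, 27.8% in Tubb2b, 29.2% in Tubb4b and 2.75% in Ttc5. Tubb3, Tubb5 and Tubb6 had no such window. Gm49450 is among the genes that share windows with Tuba1a and Tuba1b. It overlaps 26.2% of the exonic bases of Tuba1a and 22.7% of those of Tuba1b on the same strand. A read there cannot be given to one gene, and this overlap is not separate from the shares above. Reads that map to several genes are not counted by default in featureCounts, the counter used, so levels of the α isotypes may be underestimates and how reads were split between the α isotypes is uncertain. The 12 related pseudogenes in the table took few reads, 176 to 312 per library in all, or 0.229% to 0.365% of the counts of the 9 tubulins, most of them in Gm6682.

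The libraries held 20402205 to 27717594 counts. Upf1, the target, fell from 5230 ± 18.1 normalised read counts in siCtl (SD, n = 2) to 2449 ± 46.6 in siUpf1 (SD, n = 3), which is 46.8% of the siCtl level (log2 fold change -1.10, SE 0.051, adjusted p = 7.27e-101 in DESeq2). The cells carried sympathoadrenal markers, with 10 of 11 at a mean of at least 1 TPM (a level per exonic length, scaled to the same total in every library). The summed level of the list was 1073 to 1147 TPM in siCtl and 1298 to 1524 TPM in siUpf1. The summed levels of fibroblast, immune, glial and epithelial markers were below 10 TPM in every library, with Col3a1, Lum, Mog and Krt5 at 0. Of the 10 sympathoadrenal markers tested, 7 were called higher and 1 lower (Gata2) in siUpf1, and their part in the results below was not tested. In bulk RNA, fewer cells of a kind and less RNA per cell cannot be told apart.

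**Figure D1:**
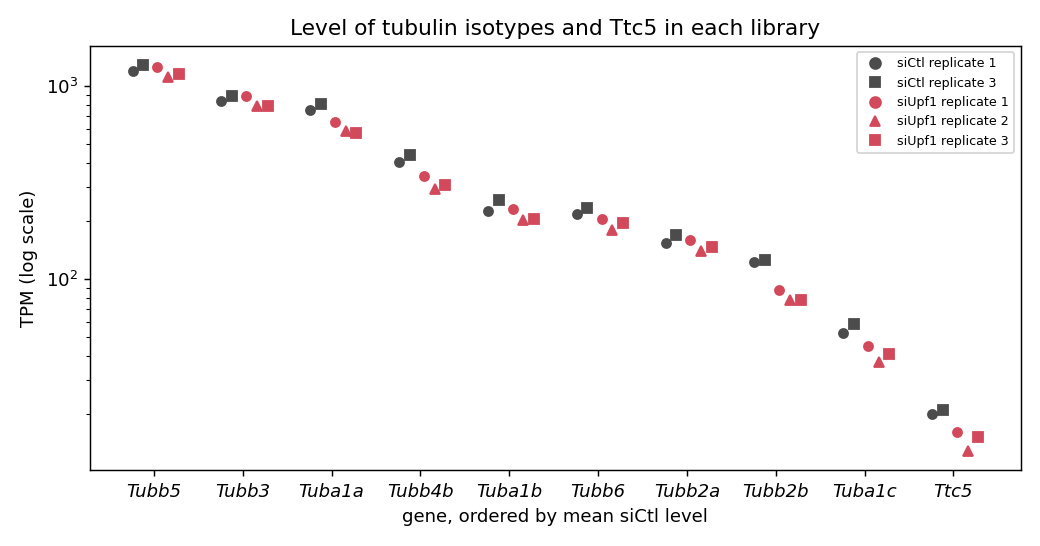
TPM on a log axis for each gene in the 2 siCtl (grey) and 3 siUpf1 (red) libraries, with genes ordered by their mean siCtl level. On this scale Tubb5 lies highest at 1202 to 1284 TPM in siCtl and Ttc5 lowest at 19.97 to 21.1 TPM.

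N2A cells expressed the neuronal and the general isotypes side by side. By TPM, which makes no allowance for reads lost to shared windows, Tubb5, a widely expressed β-tubulin, was the highest at 1243 ± 58.1 TPM in siCtl (SD, n = 2). It was followed by Tubb3 (863.5 ± 36.9 TPM), the neuronal β-tubulin known as class III, and Tuba1a (783.4 ± 41.6 TPM), the main α-tubulin of developing neurons. The siCtl libraries of Tubb3 and Tuba1a did not overlap, at 837.4 and 889.6 TPM against 754.0 and 812.8 TPM. Tubb4b, a broadly expressed β-tubulin that is also found in cilia, came next at 404.7 and 438.6 TPM. Tuba1b, a general α-tubulin (242.4 ± 22.6 TPM), and Tubb6 (226.8 ± 11.4 TPM) overlapped in siCtl. Tubb2a (162.0 ± 10.9 TPM) and Tubb2b (124.3 ± 3.08 TPM), a pair of isotypes enriched in neurons, and Tuba1c (55.5 ± 4.30 TPM) were lower, and Ttc5 had 20.5 ± 0.807 TPM. The lengths behind TPM merge all annotated transcripts of a gene. They were 4065 nt for Ttc5 and 3327 nt for Tubb5, against 1842 and 2649 nt in the representative transcripts. On the shorter lengths the levels of both genes would be higher. In siUpf1 the order of the mean TPM was the same, with Tubb3 at 824.6 ± 58.6 TPM and Tuba1a at 605.1 ± 43.6 TPM.

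The order of the tubulins depended on this scale. In normalised counts per 1000 windows found in no other gene, Tuba1a was the highest, with 21213 and 21636 in siCtl, above Tubb5 with 14554 and 14712. Tubb3 followed with 8210 and 8252, and Tuba1b with 7867 and 8495 overlapped it. Tubb4b had 7388 and 7575. On this scale Tuba1b was well above Tubb6, which had 2984 and 3031, whereas the TPM of these genes overlapped. Tubb2a, Tubb2b and Tuba1c were again the lowest, with siCtl means of 2470, 1711 and 1306. The siUpf1 means of the leading genes were 16803 for Tuba1a, 14015 for Tubb5, 7976 for Tubb3, 7290 for Tuba1b and 5646 for Tubb4b, in the same order as in siCtl.

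On Upf1 knockdown, 6 of the 9 α- and β-tubulin isotypes and Ttc5 fell, and the other 3 isotypes were not called. Of the 10 genes, 7 were called lower by DESeq2 at an adjusted p under 0.05, namely all 3 α isotypes, 3 of 6 β isotypes (Tubb2b, Tubb4b and Tubb6) and Ttc5, and 0 were called higher. Over all 15581 genes tested, 43.7% were called, 22.3% lower and 21.4% higher. The decreases were moderate, with siUpf1 levels from 66.5% (Tubb2b) to 89.1% (Tuba1b) of siCtl. The median absolute log2 fold change of the 10 genes was 0.28, against 0.29 over all genes tested and 0.43 over all genes called. The value over all genes tested includes genes with few reads and large standard errors, so it is not a like measure of effect size. The median log2 fold change of the 10 genes was -0.28, and that of all genes tested was 0.00 (-0.0008). The siUpf1 libraries were all below both siCtl libraries for 8 of the 10 genes, which is the case for 34.7% of all genes tested, and all above them for 0, against 33.8%.

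**Figure D2:**
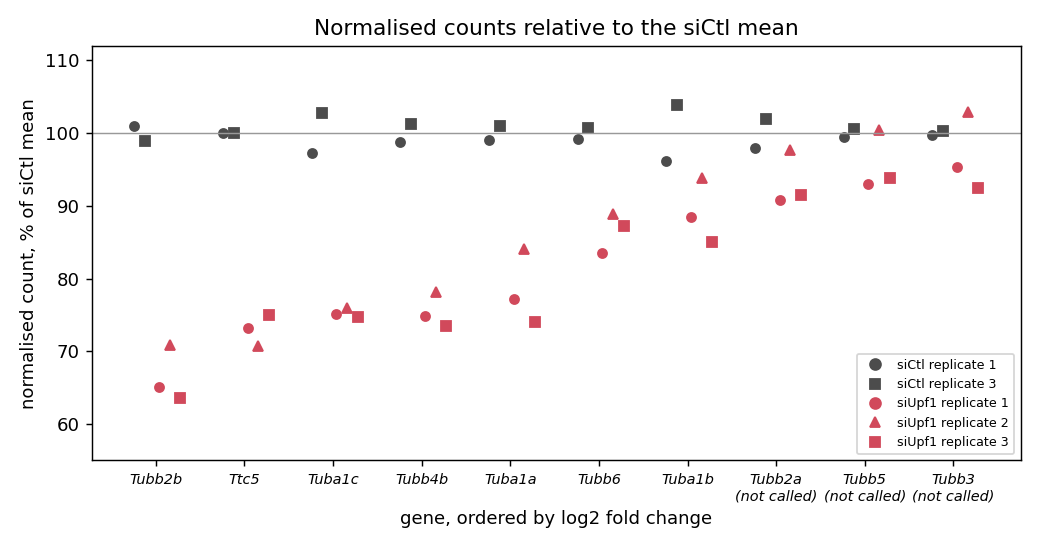
Normalised counts as a percentage of the siCtl mean (the axis does not start at 0) for each gene in the 2 siCtl (grey) and 3 siUpf1 (red) libraries, ordered by log2 fold change. The siUpf1 points of Tubb2b lie lowest, and those of Tubb5 and Tubb3 reach the siCtl points only through siUpf1 replicate 2.

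Among the α isotypes, Tuba1a had 12622 and 12873 normalised counts in siCtl replicates 1 and 3, and 9841, 10718 and 9434 in siUpf1 replicates 1, 2 and 3. The siUpf1 libraries stood below both siCtl libraries, and the log2 fold change was -0.35 (SE 0.051, adjusted p = 6.96e-11 in DESeq2). Tuba1c had 1114 and 1177 normalised counts in siCtl and 860.0, 869.8 and 856.6 in siUpf1. Its siUpf1 libraries were close to each other and 75.3% of the siCtl mean (log2 fold change -0.41, SE 0.081, adjusted p = 1.96e-06). Tuba1b changed least, from 3941 and 4256 normalised counts in siCtl to 3627, 3847 and 3483 in siUpf1 (log2 fold change -0.17, SE 0.058, adjusted p = 0.0104). The groups of Tuba1b did not overlap, but the gap between them was narrower than the range within either group, and its call was lost without siCtl replicate 3 (adjusted p = 0.282), without siUpf1 replicate 3 (0.101) and with the replicate number as a block (0.101). Since reads may be split between α isotypes, their counts were also summed. A sum does not depend on how the counted reads were split, but it cannot recover reads left out because they map to several genes. Tuba1a held 70.9% of the summed counts in siCtl on average, so the sum largely repeats the result of Tuba1a. The sum fell from 17992 ± 444.0 to 14512 ± 846.0 normalised counts (80.7% of siCtl, log2 fold change -0.31, SE 0.049, adjusted p = 1.27e-09) and was called in all 12 alternatives.

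The β isotypes diverged from one another. Tubb2b fell most, from 2602 and 2549 normalised counts in siCtl to 1677, 1824 and 1636 in siUpf1. The groups were far apart, and the log2 fold change was -0.59 (SE 0.065, adjusted p = 1.95e-18 in DESeq2). Its neighbour Tubb2a had 2307 and 2400 normalised counts in siCtl and 2139, 2298 and 2152 in siUpf1. The siUpf1 values of Tubb2a were below both siCtl values by a margin smaller than the spread within siUpf1, and the gene was not called (log2 fold change -0.10, 95% interval -0.22 to 0.02, adjusted p = 0.179). Ratios between isotypes, which no library scaling can change, are given as descriptions for pairs chosen after the fold changes were seen. Tubb2b had 1.13 and 1.06 reads per read of Tubb2a in siCtl, and 0.784, 0.794 and 0.760 in siUpf1. All 3 siUpf1 ratios were lower than both siCtl ratios. Summed, the pair fell from 4929 ± 28.5 to 3909 ± 185.1 normalised counts, or -0.34 on the log2 scale (SE 0.053, adjusted p = 1.27e-09).

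Tubb4b had 7846 and 8045 normalised counts in siCtl and 5946, 6208 and 5834 in siUpf1. The groups were well apart, with siUpf1 at 75.5% of siCtl (log2 fold change -0.41, SE 0.046, adjusted p = 9.47e-18 in DESeq2). Tubb6, a β-tubulin of low abundance in most adult tissues, had 4951 and 5028 normalised counts in siCtl and 4170, 4438 and 4353 in siUpf1 (log2 fold change -0.21, SE 0.049, adjusted p = 9.57e-05). The groups of Tubb6 did not overlap either.

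The most abundant β isotypes were not called. Tubb5 had 37113 and 37516 normalised counts in siCtl and 34728, 37490 and 34996 in siUpf1. Replicate 2 of siUpf1 lay within the siCtl range and the other two were below it. The log2 fold change was -0.06 with a 95% interval from -0.14 to 0.02 (adjusted p = 0.229 in DESeq2), and the gene was called lower in 1 of 12 alternatives, without siUpf1 replicate 2 (-0.10, adjusted p = 0.0237). Tubb3 had 14523 and 14597 normalised counts in siCtl and 13886, 14987 and 13459 in siUpf1, where replicate 2 was the highest of all libraries and the other two the lowest. Its log2 fold change was -0.05 with a 95% interval from -0.14 to 0.05 (adjusted p = 0.474), and it was called in 0 of 12 alternatives. Reads of Tubb4b per read of Tubb5 were 0.211 and 0.214 in siCtl and 0.171, 0.166 and 0.167 in siUpf1, without overlap. Reads of Tubb3 per read of Tubb5 were 0.391 and 0.389 in siCtl and 0.400, 0.400 and 0.385 in siUpf1, with overlap between the groups. The 6 β isotypes summed to 69738 ± 559.9 normalised counts in siCtl and 64073 ± 2747 in siUpf1 (91.9% of siCtl, log2 fold change -0.12, SE 0.041, adjusted p = 0.00798). That call was lost without siCtl replicate 1 (adjusted p = 0.0609), siCtl replicate 3 (0.112) or siUpf1 replicate 3 (0.0638) and with the replicate block (0.0918), and the fold change was -0.07 (adjusted p = 0.0150) after removal of trends with transcript length and GC content.

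**Figure D3:**
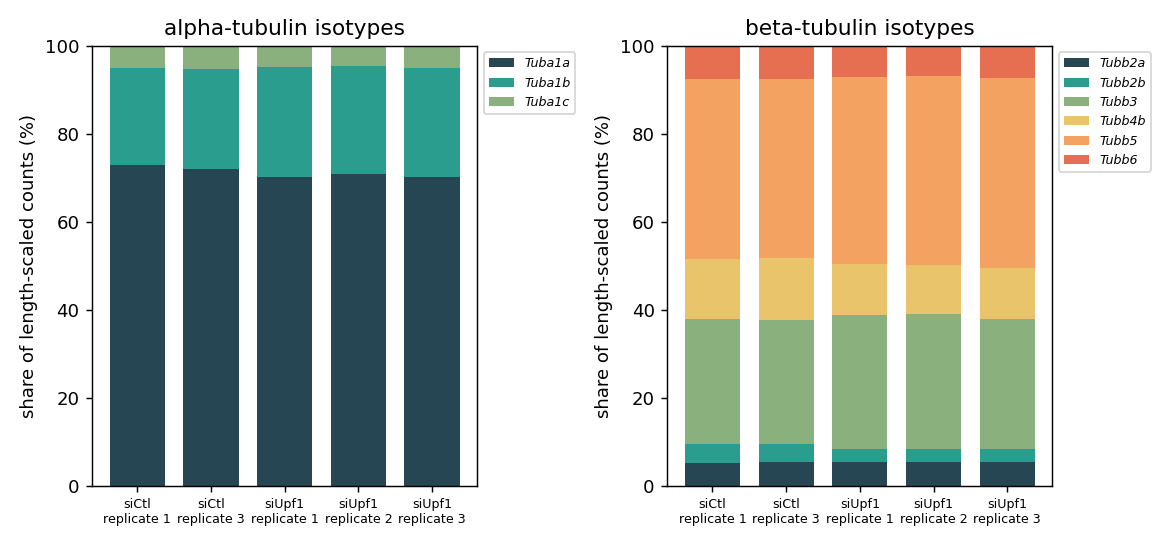
Stacked bars of each isotype's share, in percent, of the length-scaled counts of its family in each of the 5 libraries, α-tubulins on the left and β-tubulins on the right. Tuba1a holds 70.1% to 73.0% of α-tubulin, and Tubb5 and Tubb3 together hold most of β-tubulin.

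The make-up of each family shifted by small amounts, given here as shares of length-scaled counts with no test. In α-tubulin, Tuba1a made up 72.5% ± 0.746 of the 2 siCtl libraries and 70.4% ± 0.463 of the 3 siUpf1 libraries (mean ± SD), and Tuba1b 22.4% ± 0.673 and 24.8% ± 0.231. In β-tubulin, Tubb5 went from 40.9% ± 0.0269 to 42.9% ± 0.288 and Tubb3 from 28.4% ± 0.134 to 30.1% ± 0.490, while Tubb4b went from 13.9% ± 0.130 to 11.5% ± 0.164 and Tubb2b from 4.09% ± 0.0930 to 2.98% ± 0.0473. The groups did not overlap for any of these isotypes, and the normalised counts of 68.5% of all genes tested did not overlap either. Shares within a family add up to the whole, so a fall of some isotypes raises the share of others. Tuba1b, Tubb5 and Tubb3 rose in share while their normalised counts were 89.1%, 95.8% and 96.9% of siCtl. Length-scaled counts of β-tubulin were 2.81 ± 0.045 times those of α-tubulin in siCtl and 3.19 ± 0.067 times in siUpf1. When counts were divided by the number of 100-base windows found in no other gene in place of length, this ratio was 1.21 ± 0.020 in siCtl and 1.34 ± 0.030 in siUpf1. All siUpf1 libraries were above both siCtl libraries on either scale.

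Ttc5, the decay factor itself, was also lower in siUpf1. It had 753.7 and 753.8 normalised counts in siCtl and 551.4, 533.4 and 565.2 in siUpf1. The groups did not overlap and siUpf1 was at 73.0% of siCtl (log2 fold change -0.45, SE 0.097, adjusted p = 1.39e-05 in DESeq2). The call was kept in all 12 alternatives, with log2 fold changes between -0.47 and -0.43. Among 10962 genes averaging 100 or more normalised counts, the 3 whose centred log2 profile over the 5 libraries lay nearest to that of Ttc5 were Wdr37 (Euclidean distance 0.035, log2 fold change -0.43), Srrm2 (0.039, log2 fold change -0.42) and 1600002K03Rik (0.039, log2 fold change -0.45).

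The factors that act with TTC5 did not move in one direction. Scaper, the adaptor between TTC5 and the deadenylase, had 260.0 and 284.9 normalised counts in siCtl and 416.2, 328.8 and 380.6 in siUpf1. All siUpf1 libraries were higher (log2 fold change 0.47, SE 0.142, adjusted p = 0.00335 in DESeq2). Cnot11, the CCR4-NOT subunit that SCAPER contacts, fell from 2438 ± 11.7 to 2015 ± 88.9 normalised counts, or -0.27 on the log2 scale (SE 0.062, adjusted p = 4.43e-05). Of 12 genes in this list, Scaper included, 3 were called higher and 6 lower, against 21.4% and 22.3% of all genes tested. Their median log2 fold change was -0.14. The largest changes were in Cnot7, a catalytic deadenylase subunit (0.92, SE 0.061), and Cnot9, a subunit that binds adaptor proteins (-0.83, SE 0.061), and Cnot1, the scaffold, was lower (-0.37, SE 0.042).

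Of the tubulin genes outside the 9 isotypes, 6 of 11 had enough reads to be tested, with 2 called higher, 2 lower and a median log2 fold change of -0.05. Tuba4a, which unlike most α-tubulins is made without its C-terminal tyrosine, had 736.9 and 745.3 normalised counts in siCtl and 402.0, 421.7 and 391.3 in siUpf1. Its siUpf1 libraries were far below siCtl (log2 fold change -0.87, SE 0.105, adjusted p = 8.52e-16 in DESeq2), and whether it fell more than the 9 isotypes was not tested. Tuba8, a divergent α-tubulin, fell from 977.0 ± 19.3 to 733.3 ± 34.4 normalised counts, or -0.42 on the log2 scale (SE 0.088, adjusted p = 1.16e-05). Both carry the N-terminal element. Of the 17 genes that carry it, 11 were tested, of which 8 were called lower, 0 higher and 3 were not called. Over all genes tested, 22.3% were called lower and 21.4% higher. The 11 are the 9 isotypes already described with Tuba4a and Tuba8, so the count is no separate result. The remaining 6 of the 17 had at most 3 reads in a library, Gm49450 among them, whose count does not measure its level. Tubg1, Tubg2, Tubd1 and Tube1 do not carry the element and are not part of the dimer. Of these, Tubg1 and Tubd1 were called higher, and Tubg2 (log2 fold change -0.19) and Tube1 (0.09) were not called. Whether the element bears on the direction of change was not tested. Tubg1, the γ-tubulin that nucleates microtubules, rose from 4444 ± 177.7 to 5541 ± 230.3 normalised counts, or 0.32 on the log2 scale (SE 0.052), and Tubd1, the centriolar δ-tubulin, had a log2 fold change of 0.63 (SE 0.196).

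**Figure D4:**
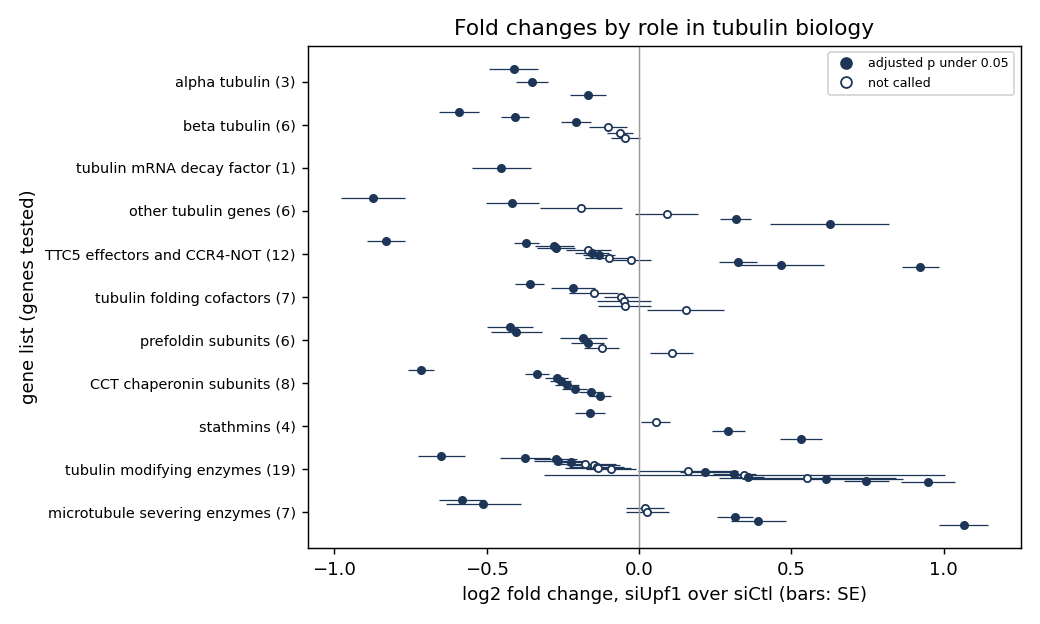
Log2 fold changes of siUpf1 over siCtl (points) with their standard errors (bars) for the tested genes of each list, filled where the adjusted p was under 0.05. All 8 CCT subunits lie below 0, whereas severing and modifying enzymes lie on both sides.

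The machinery that folds tubulin was mostly lower, where 22.3% of all genes tested were called lower and 21.4% higher. All 8 genes of the CCT chaperonin, the cytosolic ring that folds α- and β-tubulin, were called lower, with a median log2 fold change of -0.25. Cct5 fell most, from 16767 ± 136.3 normalised counts in siCtl to 10211 ± 377.9 in siUpf1 (log2 fold change -0.72, SE 0.043, adjusted p = 2.82e-61 in DESeq2), followed by Cct4 (-0.34, SE 0.038). Cct8 (-0.13, SE 0.036) and Cct6a (-0.16, SE 0.039) fell least. Of 6 subunits of prefoldin, which hands unfolded tubulin to CCT, 4 were called lower and 0 higher (median -0.18), with the lowest values in Pfdn6 (-0.42) and Vbp1 (-0.40) and smaller ones in Pfdn4 (-0.18) and Pfdn5 (-0.17). Of 7 genes for the cofactors that assemble the dimer after folding and the GTPase Arl2, 2 were called lower, Tbcd (-0.36, SE 0.048) and Tbcb (-0.22, SE 0.073), and 0 higher (median -0.06).

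Genes that act on tubulin after it is made were mixed. Of 4 stathmins, which bind free dimers, Stmn4 (0.53, SE 0.070) and Stmn3 (0.29, SE 0.054) were called higher and Stmn2 (-0.16, SE 0.048) lower, with a median log2 fold change of 0.17 over the list. Of 19 tested enzymes that modify tubulin tails or acetylate or deacetylate it, 6 were called higher and 5 lower (median -0.09). Among those that rose were Vash1, a tubulin carboxypeptidase that removes the terminal tyrosine, at 0.95 (SE 0.089) and Ttl, the ligase that puts it back, at 0.75 (SE 0.073). Sirt2, a tubulin deacetylase, had -0.65 (SE 0.076) and Ttll5, a polyglutamylase, -0.37 (SE 0.082). Of 7 severing enzymes, 3 were called higher and 2 lower (median 0.03). Fign (fidgetin) rose from 740.5 ± 30.5 to 1546 ± 79.2 normalised counts, or 1.06 on the log2 scale (SE 0.081, adjusted p = 4.23e-38) and Katnal1 had 0.39 (SE 0.089), while Katna1, the catalytic subunit of katanin, had -0.58 (SE 0.074) and Katnal2 -0.51 (SE 0.123). Over these 8 lists, 69 of 77 genes were tested, of which 16 were called higher and 30 lower, against 21.4% and 22.3% of all genes.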

How the data were processed

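RNA-seq was performed by the authors on poly(A)-selected, strand-specific libraries of 5 N2A samples. Per the submitters' processing notes and the study's methods, the authors filtered single-end reads of 100 bases with fastp, mapped them to GRCm38.p6 with STAR (2.7.0f or a later version) and used featureCounts (Subread 1.6.4) for reverse-stranded counts over exons. The deposited values were raw counts per gene, neither normalised nor pooled. By default featureCounts leaves out reads that map to several places or overlap more than 1 gene, which can lower near-identical isotypes.

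Counts of 28121 genes with a read were fitted in DESeq2 1.42.0 (R 4.3.3) by group alone, the tool the study's methods name, with its default size factors and filtering and Benjamini-Hochberg adjusted p-values, and edgeR 4.0.16 (quasi-likelihood) was an alternative. Error of each value is the SD over 2 siCtl and 3 siUpf1 libraries, 20402205 to 27717594 counts deep. With so few libraries some SDs lie below counting error. Isotype sums replaced the isotypes' rows with size factors kept. TPM used exonic lengths of GENCODE M21, merged over all transcripts of a gene. In that annotation 99.8% of gene identifiers were found. Coding starts were read from the GENCODE M21 transcripts, with 1 representative transcript per gene, because no protein sequences were used here. Alternatives were other size factors, count filters, a replicate block and leaving out each library. Removal of length and GC trends, counts per unique window and count ratios of pairs were added after seeing the data. The fits were tested on simulated data. Named genes were the 10, Upf1, Scaper, Cnot11, up to 2 called genes at either end of each list, and the 3 nearest profiles to Ttc5. The genes and lists were chosen with earlier results of these data known. The level of 1 marker gene is not reported here.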

Additional observations from a re-analysis of the deposited data

How the results depend on the processing

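No result changed sign in any of its alternatives (12 for fold changes and counts of calls, 3 for shares), and 229 of 243 recomputed values counted as unchanged. For fold changes this meant the same direction and the same side of the threshold. For counts of calls it meant a factor of at most 1.5, and for shares a move smaller than the larger group SD. Not all of the recomputed values could differ. Without the DESeq2 filtering, fold changes stay those of the main fit and only adjusted p-values can move. Among the share alternatives, adding pseudogenes named after an isotype involved no α-tubulin, so the α shares could not change. The calls of Tuba1a, Tuba1c, Tubb2b, Tubb4b, Tubb6 and Ttc5 held in all 12 alternatives, edgeR included. So did those of Upf1, of summed α-tubulin and of summed Tubb2a and Tubb2b. Leaving out each library in turn gave log2 fold changes of -1.11 to -1.08 for Upf1, -0.36 to -0.27 for summed α-tubulin, -0.16 to -0.10 for summed β-tubulin and -0.37 to -0.31 for Tubb2a and Tubb2b summed, with 6 to 8 of the 10 genes called lower and 12 to 15 higher and 24 to 30 lower in the 8 other lists. Without a siCtl library 1 remained, which was assumed to vary like the siUpf1 libraries. With the replicate number as a block, summed β-tubulin was -0.16 and no longer called (adjusted p = 0.0918, range over its alternatives 6.20e-05 to 0.112), Tuba1b was not called, and 17 in place of 30 genes of the other lists were lower. Only siUpf1 has a library of number 2, so the block fit takes its fold changes from numbers 1 and 3. They closely match those without siUpf1 replicate 2 (summed β-tubulin -0.158 in both), so these fits are not separate checks of size. Libraries with the same number did not deviate together (correlations of deviations across genes -0.086 for number 1 and -0.074 for number 3). The deviations of the 2 siCtl libraries mirror each other, so these correlations are not independent. The block leaves few residual degrees of freedom, and a lost call under it is no sign of a weaker effect. Calls over all genes were 3335 higher and 3475 lower, with 1964 and 1971 under the block and 4220 and 4172 by edgeR, and the replaced scaling that moved the split most, total counts, gave 3443 and 3083. Removal of length and GC trends, added after seeing the data, moved summed β-tubulin from -0.12 to -0.07 (adjusted p = 0.0150), Tuba1a to -0.28, Tuba1b to -0.11 (adjusted p = 0.04995), and the uncalled Tubb5, Tubb2a and Tubb3 to -0.03, -0.03 and -0.01. Changes in share were 1.14 percentage points for Tubb3 and -2.03 for Tubb4b from raw counts (1.75 and -2.40 by length), and 0.263 for Tubb2a, -3.17 for Tubb4b and 2.62 for Tubb5 per unique window (0.120, -2.40 and 2.02 by length). Too few reads left 5 of 11 further tubulin genes untested.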
